A study of Mus musculus with 18 samples.

Results

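The let-7 family with miR-98 was followed in the small RNA of mouse sperm. Its members were all listed miRNA names that start with mmu-let-7 followed by a, b, c, d, e, f, g or i, together with mmu-miR-98. Removing the arm (5p or 3p) and the copy number left 9 precursor names of the 1009 precursor names listed. They comprised 21 entries, 9 for 5p arms and 12 for 3p arms, of 1739 miRNA entries. All 21 entries passed the filter on low values (at least 1 read per 1000000 in at least 3 libraries).

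The mice were of the outbred ICR strain. F0 NHS males were treated with ammonia (NH3) and hydrogen sulphide (H2S) for 5 weeks from 3 weeks of age (the aim is worded as NH3 and/or H2S), at a dose that is not given in the sources used here, and were set against F0 control males (Con). F1 NHS and F2 NHS males were untreated descendants of treated males, mated at 8 weeks of age in F1, and were set against the F1 Con and F2 Con groups. Each of the 6 groups had 3 libraries, made from semen per the design text and labelled as sperm. F1 NHS replicates 1 and 3 were left out, because their lists end before the miRNAs, so F1 NHS is 1 library and 16 libraries were used. The labels do not tie libraries to animals, and the p-values therefore measure library-to-library spread that may be technical.

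Let-7 miRNAs are cut from a hairpin by Drosha and Dicer into a short duplex whose 5p strand is the usual guide. Bases 2 to 8 of the guide, the seed, pair with target mRNAs, and known targets include Ras genes, Hmga2 and Lin28a. Let-7 rises as cells differentiate, the RNA-binding protein LIN28 blocks its processing in stem cells, and in mouse testis let-7 has been linked to the differentiation of spermatogonia.

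The mature 5p sequences are shown because they define the family, and the seed is in capitals. They were taken from RefSeq (GRCm38.p6), where all 21 member names were matched, and are written 5′ to 3′.
mmu-let-7a-5p: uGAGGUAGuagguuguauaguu
mmu-let-7b-5p: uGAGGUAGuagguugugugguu
mmu-let-7c-5p: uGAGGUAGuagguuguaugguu
mmu-let-7d-5p: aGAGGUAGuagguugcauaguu
mmu-let-7e-5p: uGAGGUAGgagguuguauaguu
mmu-let-7f-5p: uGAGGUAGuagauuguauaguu
mmu-let-7g-5p: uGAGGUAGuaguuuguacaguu
mmu-let-7i-5p: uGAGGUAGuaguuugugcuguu
mmu-miR-98-5p: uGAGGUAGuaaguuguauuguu

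The 9 sequences are distinct but share 1 seed. Counted from 1 at the 5′ end of let-7a-5p, with the let-7a base first, let-7c-5p differs by A19G, let-7e-5p by U9G and let-7f-5p by G12A. The sequences with 2 differences are let-7b-5p (A17G and A19G), let-7d-5p (U1A and U16C), let-7g-5p (G12U and U18C) and miR-98-5p (G11A and A19U). The most divergent is let-7i-5p, with G12U, A17G, U18C and A19U. Among the other listed miRNAs let-7k and miR-1961 carry the same seed. They are no members and averaged 0.189 and 0.498 TPM.

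The 3p strands are more varied, with 11 distinct sequences and 8 seeds among 12 names. A few are shown because the results on copies and arms turn on them.
mmu-let-7a-1-3p: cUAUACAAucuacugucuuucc
mmu-let-7c-2-3p: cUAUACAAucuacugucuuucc
mmu-let-7a-2-3p: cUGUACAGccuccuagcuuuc
mmu-let-7g-3p: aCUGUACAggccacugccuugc

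The first pair of names is identical over its whole length, although the hairpins lie on different chromosomes. Let-7a-1-3p belongs to Mirlet7a-1 on chromosome 13 and let-7c-2-3p to Mirlet7c-2 on chromosome 15. A read with this sequence cannot be given to 1 of these hairpins from its letters alone.

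The 9 precursor names come from 12 hairpins on 7 chromosomes (GRCm38.p6, positions from RefSeq, overlapping genes from GENCODE). On chromosome 13, minus strand, Mirlet7d (48536012 to 48536114), Mirlet7f-1 (48537829 to 48537917) and Mirlet7a-1 (48538179 to 48538272) lie in exons of the lincRNA 6720427I07Rik, with 1714 and 261 bases between neighbours. On chromosome 15, plus strand, Mirlet7c-2 (85706603 to 85706697) and Mirlet7b (85707319 to 85707403) lie 621 bases apart in exons of Lncppara. On chromosome X, plus strand, Mirlet7f-2 (151912346 to 151912428) and Mir98 (151913214 to 151913321) lie 785 bases apart in introns of Huwe1, a ubiquitin ligase gene. Mirlet7g (chromosome 9, 106178840 to 106178927, plus strand) lies in an intron of Wdr82, and Mirlet7e (chromosome 17, 17830352 to 17830444, plus strand) in an intron of Spaca6, a sperm-egg fusion gene. Mirlet7a-2 (chromosome 9, 41536716 to 41536811, plus strand) lies in introns of the noncoding genes 3110039I08Rik and Gm49317, and Mirlet7c-1 (chromosome 16, 77599657 to 77599750, plus strand) in an intron of Mir99ahg. Mirlet7i (chromosome 10, 122985640 to 122985724, minus strand) lies in an exon of the transcribed pseudogene D630033A02Rik. Copies of let-7a, let-7c and let-7f share 1 listed 5p entry but have separate 3p entries.

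Library totals ranged from 18072900 to 29430555 reads in the libraries used, of which 3408722 to 13212381 were miRNA reads. Values are reads per 1000000 library reads (TPM, with no length term), and the mature members are all 21 or 22 bases long. Length therefore hardly enters comparisons between members. How evenly the different sequences were captured in the libraries was not tested, so orders of members are orders of reads. Reads of tRNA-Ala split the libraries into a set of 6 with 2382 to 18728 TPM (F0 NHS 3, F0 Con 2, F1 NHS 2, F2 NHS 1, F2 Con 1 and F2 Con 2) and a set of 10 with 48.5 to 228 TPM. The median family share of miRNA reads was 19.4% in the set of 6 and 16.2% in the set of 10, and the ranges overlapped. Germ cell and sperm miRNAs took 3.51% to 19.8% of miRNA reads, smooth muscle and stromal miRNAs 4.24% to 41.9%, red blood cell miRNAs 2.17% to 15.5% and epithelial miRNAs 2.86% to 6.46%. Leukocyte miRNAs took 0.240% to 2.27%, skeletal and cardiac muscle miRNAs 0.0393% to 0.308% and an endothelial miRNA 0.0938% to 1.26%. Every marker of these lists had reads in at least 1 library, so the libraries labelled as sperm also held miRNAs typical of other cells. In such bulk samples fewer cells of a type and less RNA per cell cannot be told apart.

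The family took 8.81% to 28.7% of miRNA reads over the 16 libraries. It summed to 62164, 57679 and 57802 TPM in F0 NHS replicates 1, 2 and 3, against 85261, 35760 and 127803 TPM in F0 Con. The F1 NHS library had 85790 TPM, against 18104, 24565 and 74983 TPM in F1 Con. In F2 the sums were 59025, 52273 and 111176 TPM in NHS and 90274, 40426 and 54565 TPM in Con. The groups overlapped in F0 and F2, and F0 NHS libraries lay close together within the wide range of F0 Con.

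As a share of miRNA reads the family took 14.9%, 15.9% and 11.0% in F0 NHS and 16.5%, 8.81% and 22.3% in F0 Con. The F1 NHS library had 22.4%, against 13.6%, 14.2% and 23.0% in F1 Con. In F2 it took 18.9%, 15.8% and 28.7% in NHS and 27.9%, 19.9% and 18.4% in Con. The low family sums of F1 Con replicates 1 and 2 went with few miRNA reads in all, at 13.3% and 17.3% of their totals, and their family share of miRNA reads lay inside the range of the other groups.

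**Figure D1:**
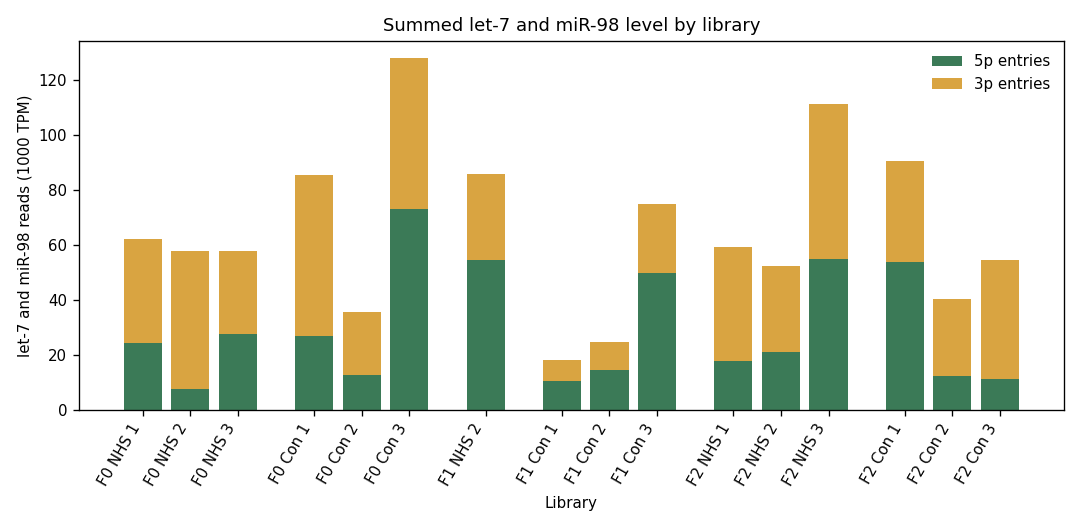
Summed let-7 and miR-98 level in each of the 16 libraries (bars, TPM in the units given on the axis), split into 5p entries (lower part) and 3p entries (upper part). The sums range from 18104 TPM in F1 Con 1 to 127803 TPM in F0 Con 3, and the split between arms differs widely between libraries of 1 group.

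Summed over arms and copies as listed, let-7c was the most abundant member in 16 of 16 libraries. It averaged 23284 ± 11722 TPM (SD over 16 libraries) and ranked 3 among the 1009 precursor names. Let-7a followed at 11850 ± 6170 TPM, ranked 7, and was above let-7f in every library. Both orders rest in part on the 3p sequence that let-7a-1-3p and let-7c-2-3p share, which held 3.32% to 62.2% of the reads of let-7a and let-7c together. With those reads left out, an alternative chosen after seeing the data, let-7c was above let-7a in 13 of 16 libraries and let-7a above let-7f in 7 of 16. With all of them given to let-7a, let-7c was above let-7a in 12 of 16 libraries. In F0 NHS replicate 2 let-7c had 23738 TPM as listed and 2272 TPM without them. Let-7f averaged 6852 ± 4375 TPM, let-7g 6777 ± 3919 TPM, let-7d 6439 ± 2566 TPM and let-7b 5586 ± 2858 TPM, with ranks 11, 12, 14 and 17.

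These last 4 names were not separated from each other. Let-7f was above let-7g in 6 of 16 libraries, let-7g above let-7d in 6 and let-7d above let-7b in 10. Let-7i averaged 3177 ± 1672 TPM and was below let-7b in 13 of 16 libraries. Let-7e averaged 653 ± 402 TPM and miR-98 235 ± 141.8 TPM, ranks 74 and 109, and let-7e was the higher one in 14 of 16 libraries.

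Let-7c supplied 25.9% to 46.3% of family reads and let-7a 13.6% to 27.0% over the 16 libraries. Let-7e, at 0.245% to 2.39%, and miR-98, at 0.166% to 0.708%, were minor members throughout. Across the 16 libraries the precursor sums (log2 TPM) correlated positively for every pair of members, from r = 0.33 for let-7e with let-7i to r = 0.90 for let-7c with let-7d. Among names with hairpins in 1 cluster, let-7c and let-7b had r = 0.89, let-7f and miR-98 0.85, let-7a and let-7d 0.86, let-7a and let-7f 0.83 and let-7d and let-7f 0.70. These points share library and depth, and let-7a, let-7c and let-7f each sum copies from 2 loci.

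**Figure D2:**
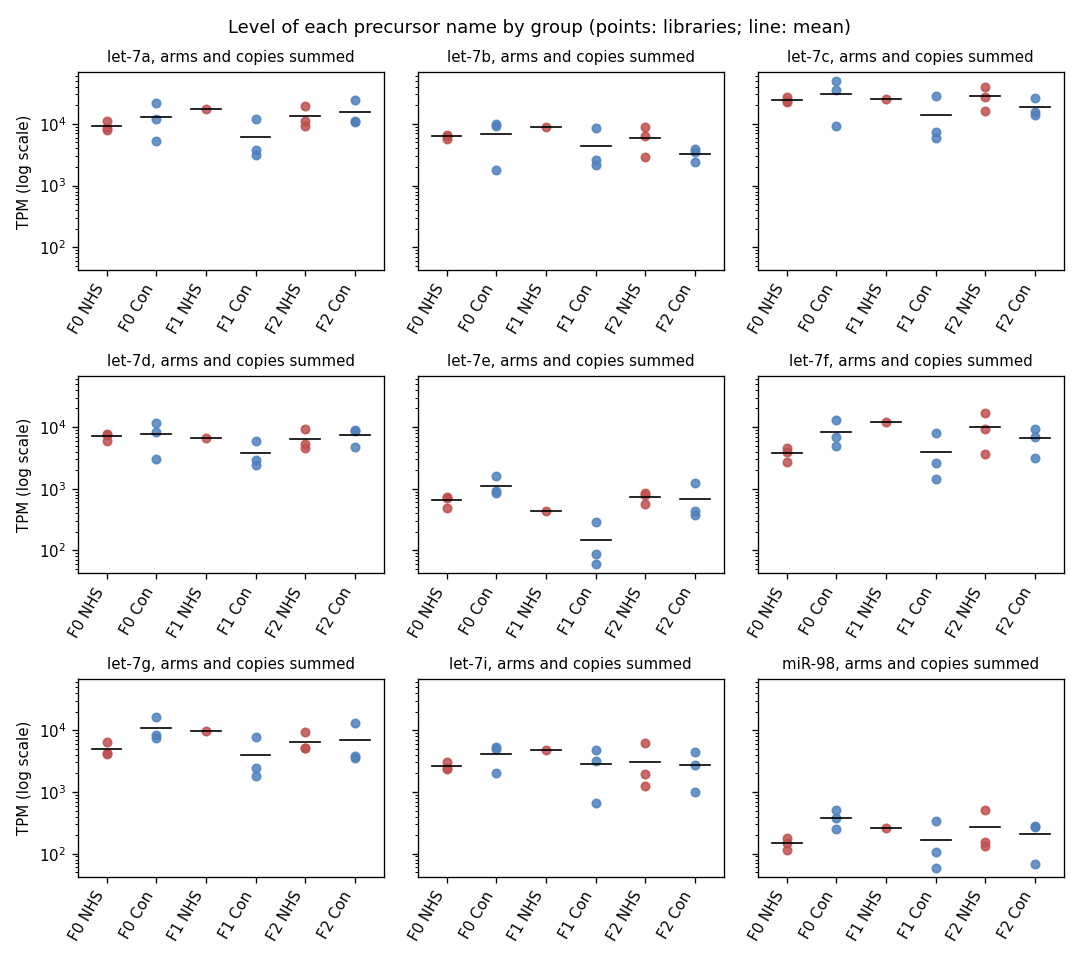
Level of each precursor name, arms and copies summed, by group (points are libraries, lines are group means, log scale, TPM). Let-7c is the highest panel with a mean of 23284 TPM and miR-98 the lowest with 235 TPM, and F1 Con includes the lowest let-7e values, at 60.2 to 292 TPM.

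The division of reads between the arms differed widely between replicates of 1 group. The 5p share of family reads was 39.0%, 13.2% and 47.7% in F0 NHS and 31.7%, 35.5% and 57.05% in F0 Con. It was 63.5% in the F1 NHS library, against 57.3%, 58.8% and 66.2% in F1 Con. In F2 it was 30.2%, 40.2% and 49.5% in NHS and 59.7%, 30.1% and 20.5% in Con. Reads under 3p names thus outnumbered those under 5p names in 10 of 16 libraries.

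For single precursor names the 5p share spanned almost the whole scale. The distance between the lowest and the highest library was 82.5 to 93.8 percentage points over the 9 members, with a median of 88.1. For the 134 other precursor names with both arms and a mean of at least 100 TPM the median was 66.7 points, and for the 94 of them with a mean 5p share of at least 5% it was 77.7 points. Let-7c, the most abundant member, had a 5p share of 8.14%, 2.02% and 64.9% in F0 NHS and of 1.10%, 6.22% and 73.3% in F0 Con. It stood at 84.8% in the F1 NHS library and at 89.1%, 69.0% and 85.5% in F1 Con. In F2 it stood at 0.959%, 69.4% and 65.7% in NHS and at 70.4%, 1.62% and 7.30% in Con. In F0 and F2, libraries of 1 group therefore listed let-7c almost wholly under its 3p names or mainly under its 5p name. All F1 libraries used listed it mainly under its 5p name.

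The spread within groups shows the same contrast. The SD of log2 TPM within groups was 0.833 to 2.98 over the 21 entries, with a median of 1.67, and 0.641 to 1.05 over the 9 precursor sums, with a median of 0.865. In 8 of 9 members the sum varied less than each of its own entries, the exception being miR-98. Medians were 1.25 for 187 other entries and 0.755 for the other precursor sums, each of at least 100 TPM. How reads were given to arms and copies is not given in the sources used here, and the part of that step in the arm values was not tested. Summed levels are therefore given beside the arms. The separate sums of let-7a and let-7c carry the same doubt, since they divide the reads of 1 shared 3p sequence, and so do their shares, correlations and fold changes. Several other 5p sequences differ from let-7a-5p by only 1 or 2 bases. How reads of such close sequences were told apart is not given either, and its part in the sums of all members was not tested.

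**Figure D3:**
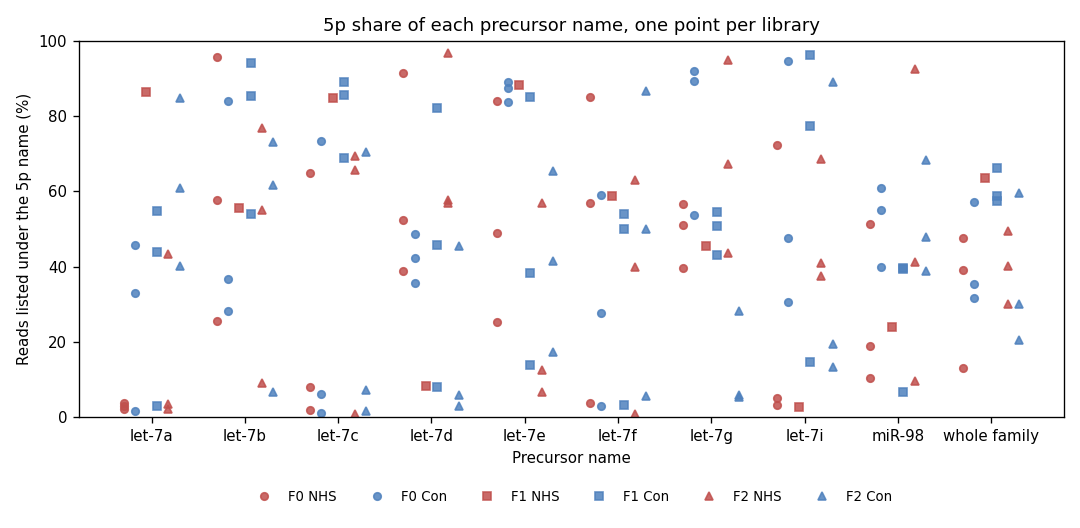
Share of reads listed under the 5p name for each precursor name and for the whole family (percent, 1 point per library, NHS left of Con within each generation). For every member the points spread over more than 80 percentage points, while the family share stays between 13.2% and 66.2%.

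The identical pair of 3p names shows how reads of 1 sequence were listed under 2 copies, not how arms were divided. Over the 16 libraries let-7a-1-3p averaged 4129 TPM and let-7c-2-3p 4128 TPM, but single libraries differed widely. F0 NHS replicates 1, 2 and 3 listed 4189, 249.5 and 6344.5 TPM under let-7a-1-3p and 6197, 21466 and 5833 TPM under let-7c-2-3p. F0 Con replicates listed 6111, 409.5 and 12494 TPM under let-7a-1-3p and 1536, 6207 and 3580 TPM under let-7c-2-3p. The second name was 86.0-fold higher in F0 NHS replicate 2 and the first 11.5-fold higher in F2 NHS replicate 2. The first name was the higher one in 9 of 16 libraries.

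Because 1 sequence carries both names, these ratios cannot be read as levels of 2 RNAs. Both names summed to 10386, 21716 and 12177 TPM in F0 NHS and to 7647, 6616 and 16074 TPM in F0 Con. Gaps of this kind were seen in other identical names too: miR-199a-3p and miR-199b-3p differed by up to 15.7-fold one way and 14.4-fold the other.

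**Figure D4:**
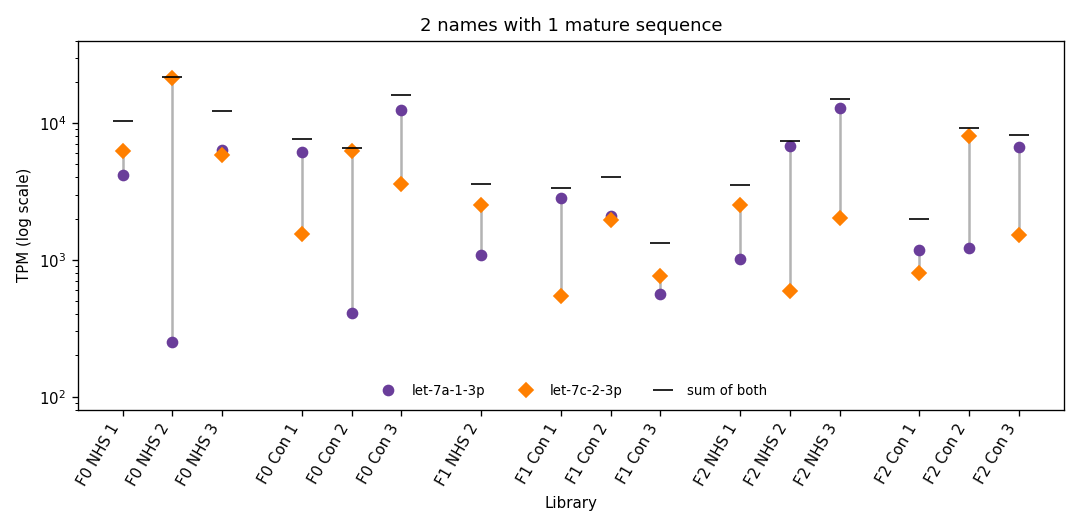
Level of let-7a-1-3p and let-7c-2-3p, 2 names for 1 mature sequence, in each library (TPM, log scale), with their sum as a short line. The gap between both names reaches 86.0-fold in F0 NHS 2, and neither name is the higher one throughout.

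In F0, where the males themselves were exposed, all 9 summed members had lower values in NHS, also with DESeq2 size factors and with library totals, but none passed the test. Of the 461 precursor sums 0 were called (0%), with 39 at an unadjusted p under 0.05 in edgeR's quasi-likelihood test and 3 calls in DESeq2. The median log2 fold change of NHS over Con was -0.57 for the 9 members and 0.05 for all sums. MiR-98, which like the let-7 names carries the shared seed, had 148, 116 and 180 TPM in F0 NHS and 501, 253 and 381 TPM in F0 Con. Every NHS library was below every Con library (log2 fold change -1.36, SE 0.59, edgeR adjusted p = 0.519).

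Let-7g had 4166, 4309 and 6384 TPM in F0 NHS and 7410, 8362 and 16219 TPM in F0 Con (-1.11, SE 0.50, edgeR adjusted p = 0.529). Let-7f had 4009, 2753 and 4501 TPM in F0 NHS and 6784, 4964 and 12896 TPM in F0 Con (-1.06, SE 0.51, edgeR adjusted p = 0.534). Both were without overlap between groups, as was let-7e, with 494, 719 and 725 TPM in F0 NHS and 915, 856 and 1602 TPM in F0 Con (-0.82, SE 0.49). In all, 4 of 9 members lay below Con without overlap, against 4.99% of all sums, and 0 of 9 above it, against 11.3%.

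The 5 others overlapped. Let-7c, the most abundant member, had 27262, 23738 and 22775.5 TPM in F0 NHS and 34976, 9253 and 48667 TPM in F0 Con (-0.19, SE 0.49). Let-7a had 8708, 11179 and 7840 TPM in F0 NHS and 11973, 5257 and 21798 TPM in F0 Con (-0.38, SE 0.44). In both, 1 Con library was below and the others above all NHS libraries. Let-7b and let-7d had log2 fold changes of -0.0084 and -0.0042, and both turned positive with a term for the tRNA-Ala sets (0.04 and 0.03) and with a replicate block (0.18 and 0.04). Over 25 other settings 6 to 9 members were lower. Let-7f made up 6.45%, 4.77% and 7.79% of family reads in F0 NHS and 7.96%, 13.9% and 10.1% in F0 Con, without overlap. Let-7d made up 12.2%, 10.4% and 12.9% of family reads in F0 NHS and 9.76%, 8.43% and 8.96% in F0 Con, without overlap in the other direction. The shares of the 7 other members overlapped in F0. In F2 let-7d went the reverse way, at 8.98%, 8.69% and 8.36% in NHS and 9.96%, 11.7% and 15.7% in Con, without overlap. It was the 1 of 9 members below Con in F2, and 0 of 9 lay above. The F1 NHS library lay below all Con libraries for let-7d and miR-98, and above them for let-7a, let-7e, let-7f and let-7g. Shares of 1 family depend on each other, and they have no background over all names.

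Among single entries in F0, 0 of 735 were called (0%), with 45 at an unadjusted p under 0.05 in edgeR and 1 call in DESeq2. Of the 21 members 15 were lower and 6 higher. The smallest p belonged to mmu-let-7a-5p, with 254, 416 and 171 TPM in F0 NHS and 5472, 84.7 and 7192 TPM in F0 Con. It overlapped because F0 Con replicate 2 was below all NHS libraries (-3.66, SE 1.47, edgeR adjusted p = 0.735). That library listed let-7a under let-7a-2-3p at 4762 TPM, and its 5p share of let-7a was 1.61%.

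Let-7g-5p had 2362, 2198 and 2532 TPM in F0 NHS and 6608, 4490.5 and 14908 TPM in F0 Con, without overlap (-1.77, SE 0.74, edgeR adjusted p = 0.735). Let-7f-1-3p had 145.8, 105 and 1719 TPM in F0 NHS and 3951, 1832 and 7982 TPM in F0 Con, also without overlap (-2.97, SE 1.42). With let-7e-5p and miR-98-5p, 4 of 21 entries lay below Con without overlap, against 4.63% of all entries, and 0 of 21 above it, against 8.03%.

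The ratio of 5p to 3p reads, which does not depend on library scaling, gave 0 calls of 287 names in F0 (0%, limma, 9 at an unadjusted p under 0.05). For let-7g the 5p share was 56.7%, 51.0% and 39.7% in F0 NHS and 89.2%, 53.7% and 91.9% in F0 Con (log2 ratio change -2.31, SE 1.30). For let-7i it was 72.3%, 3.22% and 5.25% in NHS and 30.7%, 94.5% and 47.7% in Con (-3.50, SE 2.11), and for let-7e 84.0%, 48.8% and 25.3% in NHS and 87.3%, 89.1% and 83.7% in Con (-2.47, SE 1.51). In each of these 3 the groups overlapped, and each had a limma adjusted p of 0.943. Without overlap were 0 of 9 members below Con, against 4.88% of all names, and 0 above it, against 3.83%. Smooth muscle and stromal miRNAs ranged from 14.8% to 23.6% of miRNA reads in F0 NHS and from 12.3% to 41.9% in F0 Con, and germ cell miRNAs from 5.79% to 16.4% in F0 NHS and from 3.51% to 5.79% in F0 Con. Their part in the let-7 values was not tested.

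In F1, the sons, the comparison rests on 1 NHS library, which is assumed to vary like the other groups. All 9 summed members had a positive log2 fold change, of which at most 1 turned negative in 23 other settings (median log2 fold change 0.74, all sums -0.04), and 0 of 461 sums were called (0%, 45 at an unadjusted p under 0.05 in edgeR, 6 calls in DESeq2). Let-7f stood at 12022 TPM in F1 NHS and at 1445, 2628 and 7855 TPM in F1 Con (1.35, SE 0.67, edgeR adjusted p = 0.478). Let-7e stood at 438 TPM in F1 NHS and at 89.0, 60.2 and 292 TPM in F1 Con (1.31, SE 0.64), and let-7a at 17677 TPM in F1 NHS and at 3085, 3788 and 11783 TPM in F1 Con (1.23, SE 0.59). Let-7c stood at 25621 TPM in F1 NHS and at 5990, 7236 and 28064 TPM in F1 Con, inside the range of Con (0.66, SE 0.67). The library lay above all 3 Con libraries for 7 of 9 members, against 44.3% of all sums, and for let-7i by less than 1 TPM. It lay below all of them for 0 of 9, against 15.2%.

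The F1 NHS library belongs to the tRNA-Ala set of 6 and all F1 Con libraries to the set of 10, so set and exposure cannot be told apart here. Red blood cell miRNAs took 15.5% of miRNA reads in F1 NHS and 9.60% to 12.9% in F1 Con, and germ cell miRNAs 11.2% in F1 NHS and 13.3% to 18.6% in F1 Con. Both lists lay outside the range of Con, and their part in the let-7 values was not tested. F1 Con replicates 1 and 2 also had the lowest miRNA shares of library reads, at 13.3% and 17.3%. Taking library totals in place of TMM factors moved the median of all sums by 0.42 (log2). Among entries 0 of 735 were called in F1 (0%, 44 at an unadjusted p under 0.05 in edgeR, 7 calls in DESeq2), with 14 of 21 members higher. Let-7i-5p stood at 124.7 TPM in F1 NHS and at 520, 3094 and 688 TPM in F1 Con (-4.20, SE 2.24), while the sum of let-7i stood at 4717 TPM in F1 NHS and at 672, 3218 and 4716 TPM in F1 Con (0.41, SE 0.85). Let-7f-1-3p stood at 73.0 TPM in F1 NHS and at 143.8, 1038 and 238 TPM in F1 Con (-3.37, SE 2.32), and let-7d-5p at 545.5 TPM in F1 NHS and at 1979, 239 and 2676 TPM in F1 Con (-2.10, SE 1.503). The edgeR adjusted p was 0.745 for each of these 3 entries, and the first pair lay below all Con libraries. Of the 21 entries 10 lay above Con without overlap, against 40.3% of all entries, and 2 below it, against 17.3%.

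The ratio of arms gave 0 calls of 287 names in F1 (0%, limma, 12 at an unadjusted p under 0.05). The 5p share of let-7i was 2.64% in F1 NHS and 77.4%, 96.1% and 14.6% in F1 Con (-6.49, SE 2.98, limma adjusted p = 0.832). The 5p share of let-7a was 86.3% in F1 NHS and 2.98%, 43.9% and 54.7% in F1 Con (4.36, SE 2.49), and that of let-7e 88.1% in F1 NHS and 38.4%, 13.9% and 85.1% in F1 Con (3.15, SE 2.13). Each of the 3 values in the NHS library lay outside the range of Con. With let-7f, 3 of 9 members were above all Con libraries, against 25.1% of all names, and let-7i was the 1 below them, against 23.7%.

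In F2, the grandsons, the summed members showed no common direction, with 5 lower and 4 higher in NHS (median -0.16, all sums -0.10). Of 461 sums 0 were called (0%), with 68 at an unadjusted p under 0.05 in edgeR and 30 calls in DESeq2, none of them a member. Let-7c had 27329, 16309 and 39583 TPM in F2 NHS and 26046, 14064 and 15630 TPM in F2 Con (0.27, SE 0.49). Let-7a had 9299, 11196 and 19697 TPM in F2 NHS and 24349, 10785 and 11183 TPM in F2 Con (-0.55, SE 0.44, edgeR adjusted p = 0.569). Let-7f had 3714, 9263 and 17141.5 TPM in F2 NHS and 9455, 3188 and 7019.7 TPM in F2 Con (0.25, SE 0.51). Let-7d had 5299, 4543 and 9293 TPM in F2 NHS and 8987, 4742 and 8541 TPM in F2 Con (-0.53, SE 0.39, edgeR adjusted p = 0.518). Let-7b had 6296, 2856 and 8795 TPM in F2 NHS and 3933, 2371 and 3503 TPM in F2 Con (0.57, SE 0.52). The groups overlapped for 9 of 9 members, while 4.77% of all sums lay below and 12.1% above Con without overlap, and over 25 other settings 2 to 7 members were lower.

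Single arms in F2 had larger differences than the sums. The entry mmu-let-7g-5p had 2232, 3479 and 8744 TPM in F2 NHS and 730, 1090 and 212 TPM in F2 Con, without overlap (2.47, SE 0.76, edgeR adjusted p = 0.288). It was called by DESeq2 (2.32, DESeq2 adjusted p = 0.033). The other arm, let-7g-3p, had 2897, 1695 and 472 TPM in F2 NHS and 12555, 2753 and 3306 TPM in F2 Con (-1.97, SE 0.91, edgeR adjusted p = 0.442). Both arms together stood at 5129, 5174 and 9216 TPM in F2 NHS and at 13285, 3843 and 3518 TPM in F2 Con (-0.39, SE 0.49). The direction of the sum rests on F2 Con replicate 1: it was 0.40 without that library. It was 0.85 without the tRNA-Ala set of 6, to which that library belongs, and there F2 Con replicate 3 is the only F2 Con library left.

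Of 735 entries 0 were called in F2 (0%), with 80 at an unadjusted p under 0.05 in edgeR and 28 calls in DESeq2, of which let-7g-5p was the 1 member. Let-7a-5p had 4038, 410.4 and 458 TPM in F2 NHS and 20616, 6563 and 4491 TPM in F2 Con, without overlap (-2.75, SE 1.41, edgeR adjusted p = 0.475). Besides let-7g-5p, let-7a-2-3p and let-7d-5p lay above Con without overlap, which makes 3 of 21 against 11.7% of all entries. Let-7a-5p was the 1 of 21 below it, against 4.63%.

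The ratio of arms gave 0 calls of 287 names in F2 (0%, limma, 28 at an unadjusted p under 0.05). The 5p share of let-7g was 43.5%, 67.2% and 94.9% in F2 NHS and 5.49%, 28.4% and 6.02% in F2 Con (4.76, SE 1.30, limma adjusted p = 0.290). That of let-7d was 96.8%, 57.7% and 57.03% in F2 NHS and 6.02%, 45.6% and 3.0% in F2 Con (5.00, SE 1.71, limma adjusted p = 0.329). Both were above Con without overlap, which makes 2 of 9 against 5.92% of all names, and 0 of 9 were below it, against 7.32%.

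The 5p share of let-7a went the other way, at 43.4%, 3.67% and 2.32% in F2 NHS and 84.7%, 60.9% and 40.2% in F2 Con, and overlapped (-4.34, SE 1.76, limma adjusted p = 0.418). Epithelial miRNAs ranged from 4.85% to 6.46% of miRNA reads in F2 NHS and from 2.86% to 3.08% in F2 Con. Germ cell miRNAs ranged from 8.82% to 10.8% in F2 NHS and from 15.3% to 19.8% in F2 Con. Skeletal and cardiac muscle miRNAs ranged from 0.0786% to 0.296% in F2 NHS and from 0.0393% to 0.0563% in F2 Con. None of these 3 lists overlapped between the groups, and their part in the let-7 values was not tested.

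**Figure D5:**
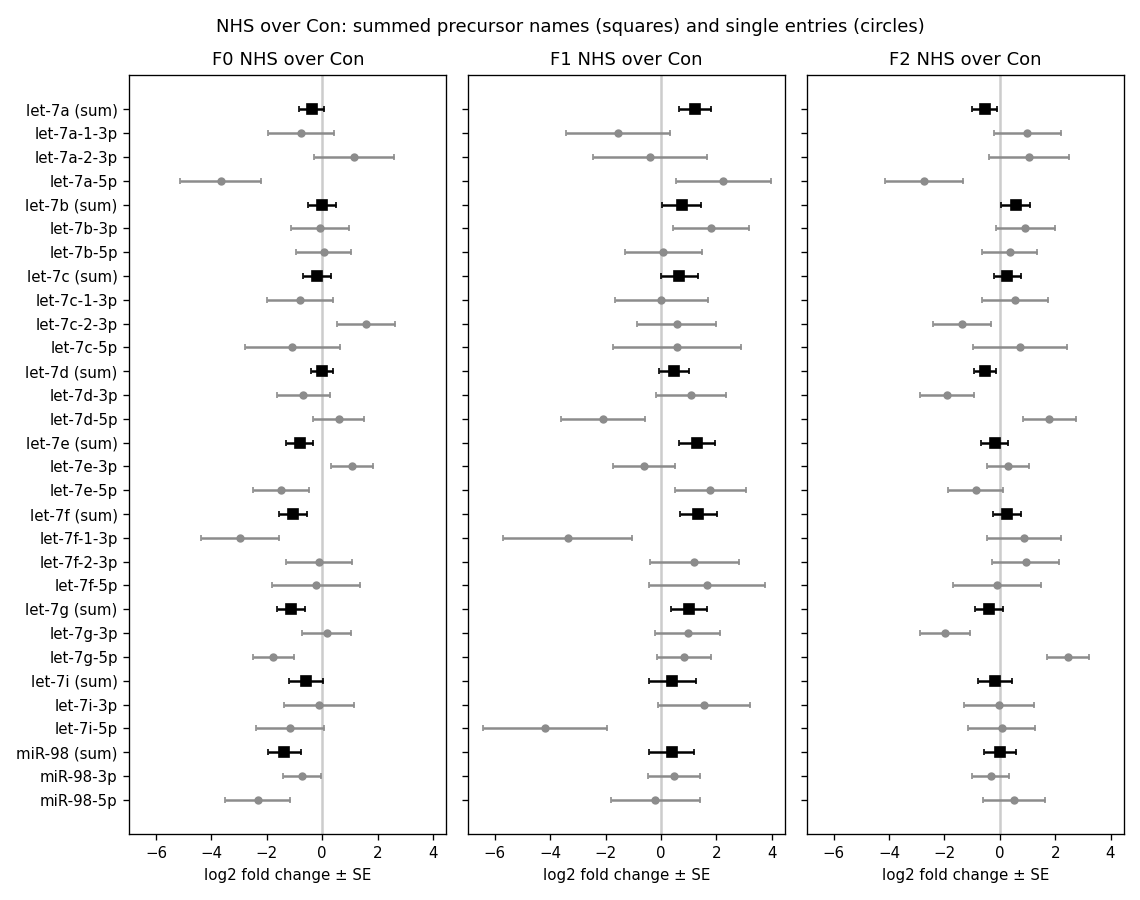
Log2 fold change of NHS over Con (± SE, edgeR) in F0, F1 and F2 for each summed precursor name (black squares) and each of its entries (grey circles). All 9 sums lie left of 0 in F0 and right of 0 in F1, where NHS is 1 library, and the entries scatter more widely than the sums, down to -4.20 for let-7i-5p in F1.

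Averaged over the generations, 0 of 461 sums, 0 of 735 entries and 0 of 287 arm ratios were called (0% each). At an unadjusted p under 0.05 there were 51 sums and 57 entries in edgeR and 15 arm ratios in limma, and DESeq2 called 9 sums and 12 entries. The 9 sums had mean log2 fold changes from -0.32 for miR-98 (SE 0.39) to 0.44 for let-7b (SE 0.34), and a median of 0.10. The test of a difference of the NHS effect between generations called 0 of each table too (0% each). At an unadjusted p under 0.05 it had 76 sums and 71 entries in edgeR and 15 arm ratios in limma, and DESeq2 called 24 sums and 11 entries. Among the sums let-7f had the smallest adjusted p (edgeR, 0.254), with its NHS effect 2.42 higher in F1 and 1.31 higher in F2 than in F0 on the log2 scale. Let-7g-5p was the 1 member among the DESeq2 calls of entries. The mean and the difference both use F1, where NHS is 1 library, of another tRNA-Ala set than all F1 Con libraries. The F1 terms therefore have no replicate, and set and exposure cannot be told apart in them.

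Among F0, F1 and F2 Con, 45 of 461 sums differed (9.76%), and let-7e was the 1 of 9 members among them. Let-7e had 915, 856 and 1602 TPM in F0 Con, 89.0, 60.2 and 292 TPM in F1 Con and 1237, 376 and 428.6 TPM in F2 Con. All F1 Con libraries lay below the libraries of both other Con groups. On the log2 scale F1 Con minus F0 Con was -2.15 and F2 Con minus F0 Con -0.12 (edgeR adjusted p = 0.0404 for any difference). The share of 1 of 9 is near the background of 9.76%, and F1 Con was below F0 Con without overlap for 34.5% of all sums. In F2 Con 0 of 9 members were below F0 Con without overlap, against 27.5% of all sums, and none was above F0 Con without overlap in F1 Con (4.12% of all sums) or in F2 Con (8.24%).

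The let-7e call depended on single libraries, while the difference kept its direction. F1 Con minus F0 Con was -2.60 to -1.86 over the fits that left out 1 library and -2.93 with library totals in place of TMM factors. It was -2.20 with a replicate block, -2.23 without the tRNA-Ala set of 6 and -2.27 with only the Con libraries. The call was lost when F0 Con 1, 2 or 3, F0 NHS 1, F1 Con 1 or 2, or F2 Con 2 was left out singly, with adjusted p from 0.0296 to 0.0853 over all 16 such fits. It was also lost with a replicate block (edgeR adjusted p = 0.0588) and with only the Con libraries in the fit (edgeR adjusted p = 0.052). The call was lost too without the tRNA-Ala set of 6, where F2 Con replicate 3 is the only F2 Con library left. It was kept in the 6 other settings. Over the other 8 members edgeR adjusted p values ranged from 0.135 for let-7a to 0.868 for let-7i. Taking library totals in place of TMM factors moved the median of all sums by -0.92 in F1 Con relative to F0 Con. All miRNAs took 40.6% to 57.4% of reads in F0 Con, 13.3% to 32.6% in F1 Con and 20.3% to 32.3% in F2 Con. Smooth muscle and stromal miRNAs took 12.3% to 41.9% of miRNA reads in F0 Con, 5.13% to 8.53% in F1 Con and 4.24% to 11.0% in F2 Con. Germ cell miRNAs took 3.51% to 5.79% in F0 Con, 13.3% to 18.6% in F1 Con and 15.3% to 19.8% in F2 Con. Their part in the let-7e difference was not tested.

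Among entries 0 of 735 differed between the Con groups (0%, edgeR, 19.5% at an unadjusted p under 0.05), and DESeq2 called 86, with let-7e-3p and let-7g-5p among them. Let-7g-5p stood at 6608, 4490.5 and 14908 TPM in F0 Con, at 971, 1230 and 3300 TPM in F1 Con and at 730, 1090 and 212 TPM in F2 Con, with F0 Con above both later groups. Its edgeR adjusted p was 0.112. Without overlap 6 of 21 entries were below F0 Con in F1 Con, against 25.6% of all entries, and 2 of 21 in F2 Con, against 21.1%. No member entry was above it, against 2.86% and 6.67% of all entries. The 5p share of let-7g was 89.2%, 53.7% and 91.9% in F0 Con, 54.6%, 50.8% and 43.1% in F1 Con and 5.49%, 28.4% and 6.02% in F2 Con. Arm ratios gave 0 calls of 287 names (0%, limma, 21 at an unadjusted p under 0.05), with let-7g at a limma adjusted p of 0.399. Arm ratios were below F0 Con without overlap for miR-98 in F1 Con (1 of 9, against 4.18% of all names) and for let-7e and let-7g in F2 Con (2 of 9, against 7.67%), and above it for 0 of 9, against 8.01% and 8.71%.

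The miRNAs known to share primary transcripts with let-7 genes are miR-99a, miR-99b, miR-100, miR-125a and miR-125b. Of these 5, 0 were called in the NHS comparisons of any generation, and their summed log2 fold changes ranged from -0.25 to 0.92 in F0, from -0.97 to 0.85 in F1 and from -1.11 to 0.18 in F2. Between the Con groups 1 of 5 was called, against 45 of all 461 sums (9.76%). This was miR-125b, which is transcribed with let-7 copies of the a and c type. It averaged 3326 ± 918 TPM in F0 Con, 844 ± 602 TPM in F1 Con and 4408 ± 723 TPM in F2 Con (n = 3 each, edgeR adjusted p = 0.0198). For miR-99b and miR-125a, the neighbours of let-7e, adjusted p was 0.432 and 0.164. MiR-99a, the neighbour of let-7c-1, was the most abundant of the 5 at 13150.5 TPM.

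Outside the family the precursor names whose log2 sums moved most like the family sum over the 16 libraries were miR-1839 (r = 0.81), miR-872 (0.80), miR-26a (0.78), miR-340 (0.78) and miR-26b (0.77). The median r over the names compared, each of at least 100 TPM, was 0.43. All miRNA reads together had r = 0.79 with the family sum. These points share library and depth. MiR-26a averaged 18353 TPM and the other names 358 to 2898 TPM.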

How the data were processed

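The authors deposited, per the file headers, a read count and a TPM value for each small RNA in each library. The counts are whole numbers of reads, and the deposited TPM is the count divided by the library total, times 1000000, which held for 100% of the values within 0.006 TPM plus 0.05%. Per the submitters' processing notes the genome build is mm10. No source used here gives the aligner, the counting rule or the treatment of reads with several matches. Of the 18 lists 13 are complete, and 16 hold the miRNAs whole.

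Known miRNAs were fitted on counts with edgeR 4.0.16 (R 4.3.3, TMM factors on library totals, 1 group-means model over 16 libraries, quasi-likelihood test), both as 735 entries and as 461 precursor names with arms and copies summed. Log2((5p + 0.5)/(3p + 0.5)) of 287 precursor names with a mean of at least 100 reads was fitted with limma 3.58.1. Tests were two-sided, with Benjamini-Hochberg adjustment over each table and a threshold of 0.05. DESeq2 1.42.0 was an alternative, and others changed scaling, filters, pseudocount, libraries and blocks. The scripts were tested on simulated data with a smaller spread than most member values here. That test does not show their power or error at the spread of these libraries. Fewer miRNA reads in a library widen counting error, and 1 TPM rests on at least 18.1 reads. Reads carry no molecular identifiers.

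Values by library are given for the 3 most abundant members and for the 3 with the smallest unadjusted p in each NHS comparison and table, and others by range. The members, the neighbour list, the marker lists and the tests were chosen with earlier results of these data known. Sequences and hairpin positions come from RefSeq (GRCm38.p6) and gene annotation from GENCODE on the same build.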

Additional observations from a re-analysis of the deposited data

Results flagged for a closer look

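Let-7g-5p was lower in every F0 NHS library than in every F0 Con library and higher in every F2 NHS library than in every F2 Con library. On the log2 scale of mean TPM the NHS effect in F2 exceeded that in F0 by 4.71. Tested as a difference of the NHS effect between generations, the F2 effect was 4.24 higher and the F1 effect 2.60 higher than the F0 effect, with an edgeR adjusted p of 0.389. DESeq2 called it (DESeq2 adjusted p = 0.0145). Let-7g-5p was flagged because of its opposite directions in F0 and F2, so that pattern and the 4.71 are no separate support. How many of all entries have the pattern was not counted. How reads were given to arms is not given in the sources used here, and its part in these values was not tested. The F1 effect rests on 1 NHS library. The sum of both let-7g arms had a log2 fold change of -1.11 in F0 and of -0.39 in F2, where the groups overlapped. The F2 value of the sum was 0.40 without F2 Con replicate 1. It was 0.85 without the tRNA-Ala set of 6, where F2 Con replicate 3 is the only F2 Con library left.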

How the results depend on the processing

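Counts of members called kept their value of 0 or 1 in 400 of 414 refits, for 18 results. DESeq2 gave 1 entry, let-7g-5p, in F2 and in the contrast of NHS effects across generations, and 2 entries, let-7e-3p and let-7g-5p, between the Con groups, where library totals in place of TMM gave 1, let-7g-5p. The let-7e call between Con groups was 0 to 1 on leaving out single libraries, and 0 with the replicate block, without the tRNA-Ala set of 6 and with only the groups compared. The cause was not tested.

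Over all features, calls between Con groups were 0 to 5 entries and 15 to 64 sums on leaving out single libraries (45 with all), 17 sums with the replicate block, 0 without the set of 6, 88 with library totals, 70 without a filter and 117 with DESeq2. For entries they were 23 with library totals, 38 without a filter and 86 with DESeq2. Calls of F2 sums were 0 to 17 on leaving out libraries.

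Of 1102 refitted log2 changes of single members 1057 kept direction and call, and 34 reversed, none of them called. In F0 let-7b had 0.179, 0.0385 and 0.00240 and let-7d 0.0446 and 0.0318 with the replicate block, the tRNA-Ala term and, for let-7b, the filter of 10 CPM. In F2 without the set of 6, where F2 Con replicate 3 is the only F2 Con library left, let-7a had 0.28, let-7e 0.77 and let-7g 0.85. Library totals gave 0.12 for let-7e and 0.19 for let-7i, no filter 0.0845 for let-7i, and miR-98 had -0.00598 with the replicate block and -0.12 with the tRNA-Ala term. On leaving out libraries the F0 ranges were -0.39 to 0.29 for let-7b, -0.54 to 0.0894 for let-7c and -0.28 to 0.21 for let-7d. The F1 range was -0.0715 to 0.68 for let-7i. The F2 ranges were -0.44 to 0.49 for let-7e, -0.24 to 0.58 for let-7f, -0.72 to 0.40 for let-7g, -0.94 to 0.33 for let-7i and -0.68 to 0.29 for miR-98.

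Same-numbered NHS and Con deviations correlated at 0.48, -0.40 and -0.41 in F0 and at -0.24, -0.02 and 0.10 in F2. Differently numbered ones ranged from -0.37 to 0.56 in F0 and from -0.41 to 0.41 in F2. With 3 libraries in a group these values cannot settle whether replicate numbers pair the libraries, so the replicate block is not taken as a paired analysis. Leaving out the set of 6 or F1 NHS replicate 2 removes the only F1 NHS library, so no F1, mean or generation-difference value exists there. Leaving out the set of 6 also leaves F2 Con replicate 3 as the only F2 Con library. Its F2 values and its calls between Con groups therefore rest on that library for F2 Con. The SE of single sums, with a median of 0.50 in F0, limits what 3 against 3 libraries can show.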
